A study of Homo sapiens with 5 samples.

Results

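The enzymes described here build, extend and cap the sugar chains carried by mucins and other glycoproteins. The set was defined as 41 named genes. A member was measured where the annotation gave it a probe set with its symbol alone, which held for 40 of the 41 and for 19775 genes in all. GALNT4 shares its probe sets with a readthrough gene and therefore has no value. Where a gene had several probe sets, the one with the highest mean was used. Expression was profiled with 1 array per line and no replicate culture in 4 lines of pancreatic carcinoma (HPAF1, PANC1, L3.6 and SU86.86) and in HPDE. The 5 lines were grown as their supplier recommends, with no treatment named in the labels, and total RNA was labelled with biotin. The labels call all of them pancreatic cancer lines, although HPDE was derived from immortalised cells of the normal pancreatic duct. Each line is a single established culture, so a difference between lines cannot be told apart from a difference between arrays or harvests.

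Mucin-type O-glycosylation begins in the Golgi, where GALNT enzymes join N-acetylgalactosamine (GalNAc) to serine or threonine. C1GALT1 adds galactose to form core 1, for which it needs the chaperone C1GALT1C1, and GCNT enzymes branch core 1 into core 2. The arms are then lengthened by B3GNT, B3GALT and B4GALT enzymes and ended by sialic acid or fucose. The capped chains include the sialyl-Lewis structures, of which CA19-9 is measured in the serum of patients with pancreatic cancer. Chain length and capping depend on which of these enzymes a cell makes, although transcript levels do not measure enzyme activity or the glycans themselves.

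Values are deposited intensities, and differences are log2 differences taken after adding 71.1 to every intensity. The array medians ran from 137 to 143. A gene was tested when at least 1 line reached 140, the median intensity over all probe sets, which kept 39 of the 40 measured members and 14894 genes. Of the 40, 25 were at or above this level in all 5 lines and 14 in some lines only. GCNT4, a core 2 branching enzyme, lay between 75.5 and 94.4 in every line. The arrays differed little on 18 spike-in probe sets, with a median SD of 0.09 log2 units. Epithelial markers (6 of 6 measured) had a summed intensity of 100263 in HPAF1, 49945 in L3.6, 20851 in PANC1, 81156 in SU86.86 and 37386 in HPDE. Acinar markers lay below the level filter in every line (3 of 6 measured). Endocrine markers had only CHGA above it, at 181 to 256 (5 of 6 measured). For fibroblast and endothelial markers (6 of 6 measured each) the summed intensity ran from 1606 to 2955 and from 889 to 1159.

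The enzymes differed widely between the lines. Of the 39 tested members, 29 had their highest and lowest line at least 2-fold apart, a span found for 42.4% of all tested genes. At least 4-fold spans were found for 13 of 39 members and 13.6% of genes, and at least 8-fold spans for 6 of 39 and 5.1%. Among brighter genes, those reaching 383 in some line, the 2-fold span held for 27 of 32 members and 58% of genes. The median span was 1.63 log2 units over the members and 0.85 over all tested genes. By role it was 2.29 for the initiating GALNT enzymes, 1.61 for core enzymes, 1.53 for chain extension, 1.18 for sialylation and 1.22 for fucosylation.

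**Figure D1:**
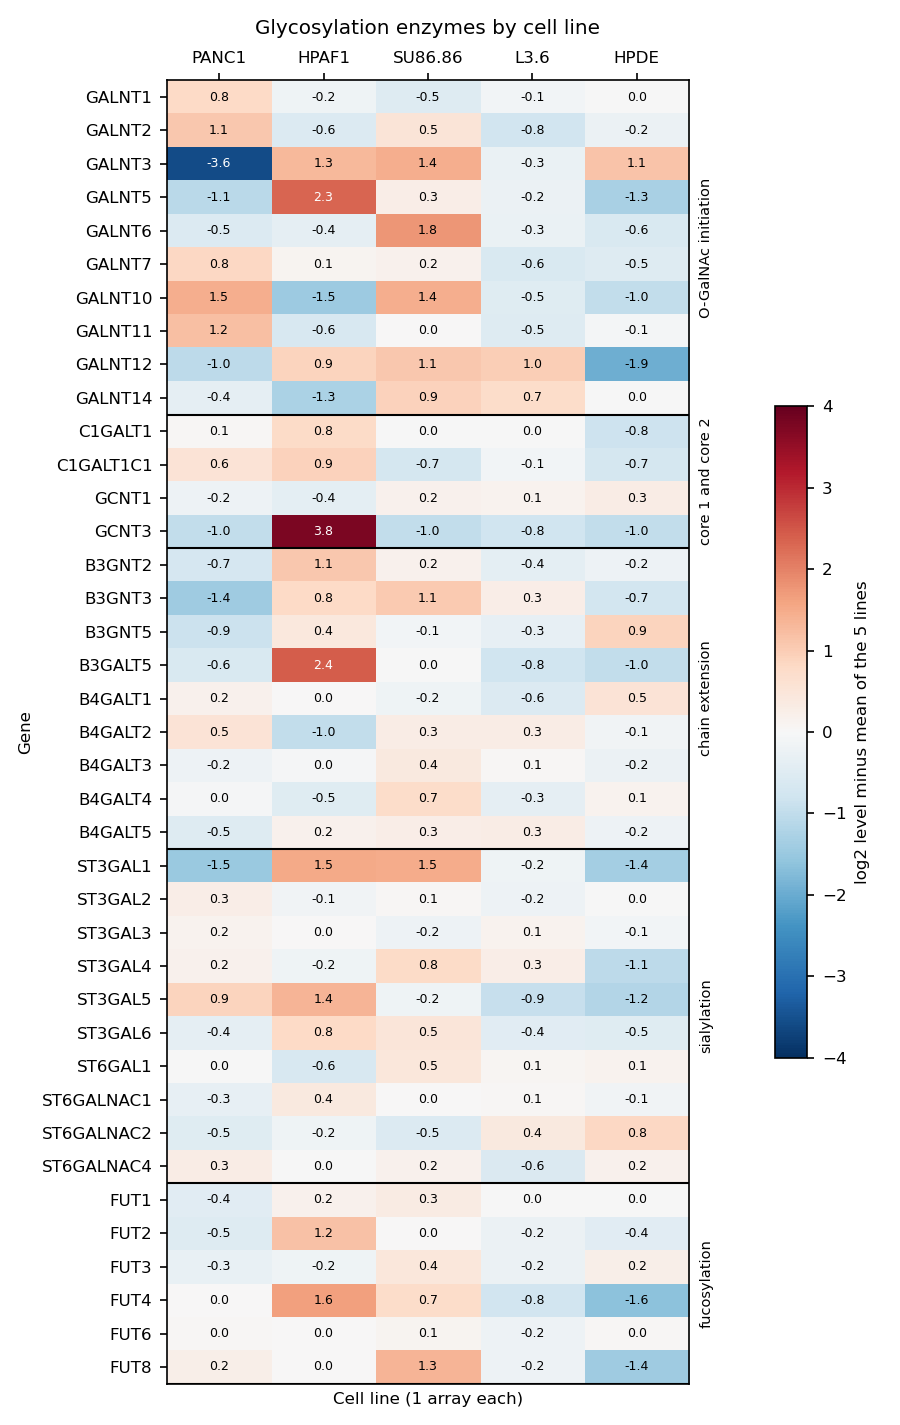
Each cell gives a gene's log2 level in a line minus its mean over the 5 lines, with 1 array per line; red is above and blue below that mean. Rows are the 39 tested members grouped by role. GCNT3, B3GALT5 and GALNT5 stand out in HPAF1, GALNT3 is lowest in PANC1, and GALNT12, FUT4 and FUT8 are lowest in HPDE.

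SU86.86 and HPAF1 most often held the highest level. SU86.86 was highest for 13 of 39 members, against 14.8% of tested genes, and HPAF1 for 12 of 39, against 23.7%. PANC1 was highest for 9 of 39 (20.2% of genes) and HPDE for 4 of 39 (22% of genes). L3.6 was highest for B4GALT5 alone, while it was highest for 19.4% of genes. The lowest level lay in HPDE for 12 members (22.7% of genes), in PANC1 for 11 (17%), in HPAF1 for 7 (22.3%), in L3.6 for 6 (14.4%) and in SU86.86 for 3 (23.6%). For 7 of 39 members (7.91% of genes) 1 line exceeded each of the others 2-fold or more, and for 2 (4.9%) 1 line was that far below them all. The line above was HPAF1 for GALNT5, GCNT3, B3GALT5 and FUT2 (2.69% of genes), SU86.86 for GALNT6 and FUT8 (1.24%), and PANC1 for GALNT11 (1.44%). It was L3.6 or HPDE for 0 members (0.53% and 2% of genes). The line below was PANC1 for GALNT3 (1.6%) and HPDE for FUT8 (0.967%), and HPAF1, L3.6 or SU86.86 for 0 members (1.38%, 0.712% and 0.235%). The 7 became 11 without SU86.86, and the 2 became 6 without PANC1, 4 without L3.6 and 5 without HPDE. No share of all genes is given for these counts with a line left out. With fewer lines to differ from, such counts can rise for genes of any kind.

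The bases before the start site are shown for 4 enzymes as examples of both patterns, GCNT3 and FUT2 for genes highest in HPAF1 and GALNT3 and B3GNT3 for genes lowest in PANC1. Promoter entries were found for 34 of the 41 members. Each window holds the 250 bases upstream of the RefSeq start in GRCh38.p14 and is read 5′ to 3′ on the gene's strand. The windows lie at chr15:59611533-59611782 (plus strand) for GCNT3, chr19:48695721-48695970 (plus) for FUT2, chr2:165794248-165794497 (minus) for GALNT3 and chr19:17794888-17795137 (plus) for B3GNT3. Capitals mark motifs on either strand. The letters searched were CAGGTG, known from E-boxes, then GGGCGG, which Sp1 binds, then TATAAA, which positions the polymerase, then GTTAAT, found within HNF1 sites, and finally TTTATG, found within CDX sites.
GCNT3: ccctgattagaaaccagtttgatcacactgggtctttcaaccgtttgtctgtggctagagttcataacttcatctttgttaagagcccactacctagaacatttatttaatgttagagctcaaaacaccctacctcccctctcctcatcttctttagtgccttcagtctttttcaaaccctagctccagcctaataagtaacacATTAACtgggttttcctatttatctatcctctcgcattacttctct
FUT2: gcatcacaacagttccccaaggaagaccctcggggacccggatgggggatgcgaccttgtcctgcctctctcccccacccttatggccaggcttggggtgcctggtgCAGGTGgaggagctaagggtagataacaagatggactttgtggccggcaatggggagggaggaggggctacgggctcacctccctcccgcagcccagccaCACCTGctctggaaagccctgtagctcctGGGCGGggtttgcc
GALNT3: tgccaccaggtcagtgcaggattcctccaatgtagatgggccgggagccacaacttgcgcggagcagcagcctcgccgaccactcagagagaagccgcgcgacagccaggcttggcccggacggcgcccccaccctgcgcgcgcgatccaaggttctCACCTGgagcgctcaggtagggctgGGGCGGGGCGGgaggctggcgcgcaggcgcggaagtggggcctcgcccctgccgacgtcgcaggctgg
B3GNT3: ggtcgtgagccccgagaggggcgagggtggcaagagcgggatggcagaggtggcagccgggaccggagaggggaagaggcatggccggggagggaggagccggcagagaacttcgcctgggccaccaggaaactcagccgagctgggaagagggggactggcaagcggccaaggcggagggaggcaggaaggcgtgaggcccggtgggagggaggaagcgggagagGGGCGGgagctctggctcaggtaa
The GCNT3 window was poor in G and C, at 40.4%, with 2 CpG dinucleotides, while the median over 35116 windows was 58% and 11 CpG. The others held 64% and 7 CpG for FUT2, 71.6% and 26 for GALNT3, and 70.4% and 16 for B3GNT3. GTTAAT occurred once, on the opposite strand of the GCNT3 window, its first base 46 bases before the start, and in 6.23% of all windows. CAGGTG occurred in the windows of FUT2 (2 matches) and GALNT3 (1 match) and in 17.5% of all windows. GGGCGG occurred in those of FUT2 (1 match), GALNT3 (2 matches, which overlap by 1 base) and B3GNT3 (1 match), and in 42.6% of all. TATAAA and TTTATG were in none of the 4 and in 10.7% and 9.64% of all windows. A match is a run of letters and no measured binding site.

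Initiation of O-glycans is shared among many GALNT enzymes with partly different peptide preferences, and the lines differed in which of them were high. GALNT3, which also glycosylates the phosphate hormone FGF23, read 46.9 in PANC1, against 1090 in L3.6, 3372 in HPAF1, 3743 in SU86.86 and 3001 in HPDE. PANC1 thus lay below the level filter and every other line well above it, a difference of -4.47 (SE 0.73, limma adjusted p = 0.322), which did not pass the test. It rests on 1 probe set, the second for this gene being below the filter in all lines. GALNT12, a transferase of the colon, read 682 in HPAF1, 730 in L3.6, 127 in PANC1, 792 in SU86.86 and 34.3 in HPDE, so that PANC1 and HPDE lay below the level filter and the other 3 lines above. Its other probe set had the same highest and lowest line.

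GALNT5 and GALNT6 were each high in a single line. GALNT5 read 2528 in HPAF1, against 364 in L3.6, 175 in PANC1, 554 in SU86.86 and 137 in HPDE. The difference for HPAF1 was 2.92 (SE 0.68, limma adjusted p = 0.257), and HPAF1 was highest on all 3 probe sets above the filter. GALNT6, a transferase of breast and other gland epithelia, read 1123 in SU86.86, against 171 in PANC1, 203 in HPAF1, 224 in L3.6 and 159 in HPDE. For SU86.86 this was a difference of 2.20 (SE 0.23, limma adjusted p = 0.295), with both probe sets highest there. Neither gene passed the test.

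PANC1 held the highest level of 5 initiating enzymes. GALNT11 read 1101 in PANC1, against 283 in L3.6, 252 in HPAF1, 440 in SU86.86 and 410 in HPDE, a difference of 1.52 (SE 0.34, limma adjusted p = 0.509). GALNT10, like B3GNT2 and ST6GALNAC2 below, was chosen for naming after its values were seen. It read 182 in HPAF1, 427 in L3.6, 1833 in PANC1, 1813 in SU86.86 and 283 in HPDE, so that PANC1 and SU86.86 were alike and far above the rest. A second probe set had the same highest and lowest line, while the remaining one stayed between 312 and 438. The ubiquitous GALNT1 and GALNT2 and the glycopeptide transferase GALNT7 were also highest in PANC1. Their levels ran from 1230 to 3129, from 1521 to 5639 and from 1481 to 4158, with PANC1 0.99, 1.34 and 1.03 above the mean of the other lines. GALNT14 was highest in SU86.86, at 1772, and lowest in HPAF1, at 329.

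**Figure D2:**
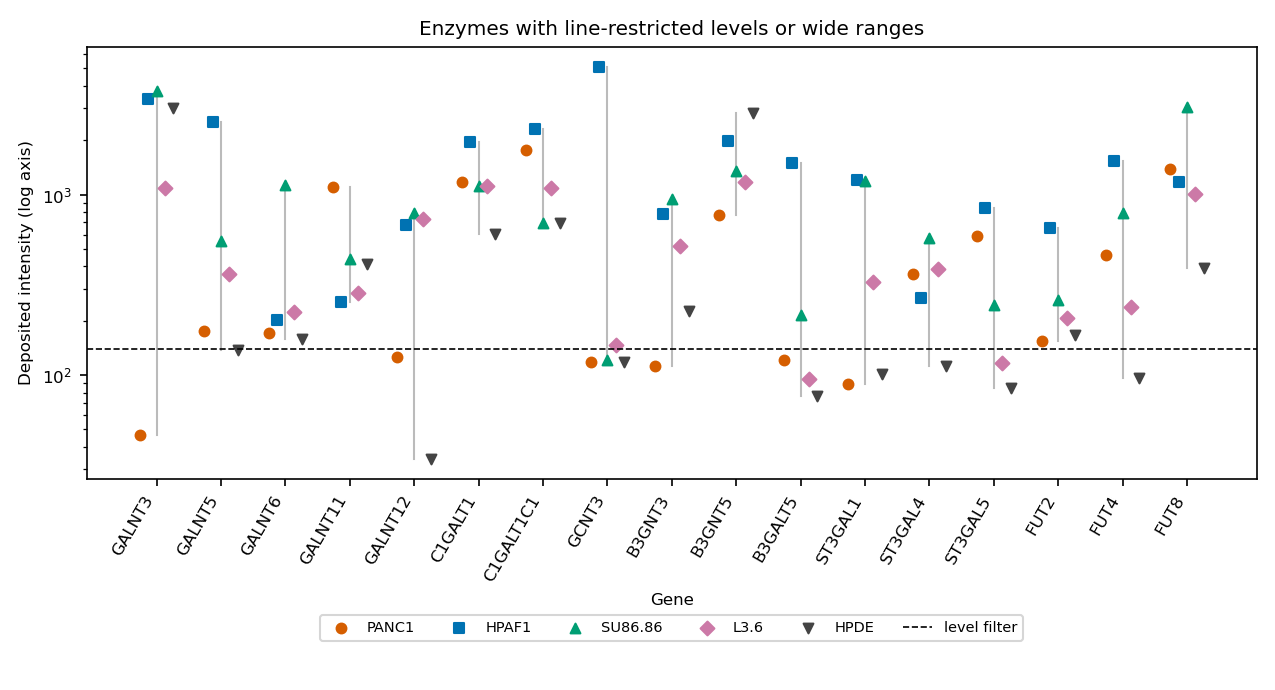
Points give the deposited intensity (log axis) of each named enzyme in the 5 lines, 1 array per line, and grey bars join the lowest to the highest line. The dashed line is the level filter at 140. GCNT3 reads 5109 in HPAF1 and at most 146 elsewhere, and GALNT3 reads 46.9 in PANC1 and at least 1090 elsewhere.

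Among the core enzymes, GCNT3 was the one member of the set past the limma threshold. GCNT3 makes core 2 and core 4 branches in mucin-secreting epithelia. It read 5109 in HPAF1, against 146 in L3.6, 119 in PANC1, 120 in SU86.86 and 119 in HPDE, a difference of 4.72 (SE 0.19, limma adjusted p = 0.0094). All 4 other lines sat at or near the level filter, so the SE rests on dim readings. With any of those lines left out, the adjusted p lay between 0.0579 and 0.12 and the difference between 4.70 and 4.77. In this contrast 36 genes were called, 0.242% of those tested, and 0 when any of those lines was left out. The gene has a single probe set. GCNT1, the leukocyte-type core 2 enzyme, was near the filter throughout, at 91.0 in HPAF1 and 187 in HPDE at the ends of its range.

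Transcripts of the core 1 enzyme and its chaperone were above the filter in every line. C1GALT1 read 1963 in HPAF1, 1108 in L3.6, 1166 in PANC1, 1114 in SU86.86 and 603 in HPDE. HPAF1 was highest on all 3 probe sets, whereas HPDE was the lowest line on the brightest probe set only. Its chaperone C1GALT1C1 read 2292 in HPAF1, 1082 in L3.6, 1756 in PANC1, 696 in SU86.86 and 693 in HPDE. HPAF1 thus held the highest value of both partners, 0.97 (SE 0.41, limma adjusted p = 0.545) and 1.16 (SE 0.56, limma adjusted p = 0.608) above the other lines, short of the threshold.

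Chain extension differed most for B3GALT5, which makes type 1 chains, the backbone of Lewis a and CA19-9. B3GALT5 read 1486 in HPAF1, against 95.2 in L3.6, 121 in PANC1, 216 in SU86.86 and 77.0 in HPDE, a difference of 3.02 (SE 0.41, limma adjusted p = 0.111). HPAF1 was highest on all 3 probe sets, and SU86.86 alone of the rest exceeded the level filter on the brightest. B3GNT3, which extends core 1, read 781 in HPAF1, 517 in L3.6, 113 in PANC1, 947 in SU86.86 and 226 in HPDE. PANC1 was below the filter, and its difference of -1.76 (SE 0.72, limma adjusted p = 0.951) did not pass.

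B3GNT5, which starts the lacto-series of glycolipids, was highest in HPDE and, like B3GNT3, lowest in PANC1. It read 1986 in HPAF1, 1173 in L3.6, 774 in PANC1, 1349 in SU86.86 and 2823 in HPDE. A second probe set had the same extremes, while another stayed between 130 and 188 with SU86.86 highest. B3GNT2, the main polylactosamine synthase, was highest in HPAF1, at 2092, against 721 in L3.6, 572 in PANC1, 1090 in SU86.86 and 826 in HPDE (difference 1.34, SE 0.36, limma adjusted p = 0.315). The galactosyltransferases B4GALT1 to B4GALT5 were above the filter in all lines with spans of 0.62 to 1.53. Of these, B4GALT2 was lowest in HPAF1, at 373, against at least 731 elsewhere. The 2 probe sets of B4GALT5 had different highest lines, L3.6 at 1874 on the one used and SU86.86 at 2655 on the other.

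Among sialyltransferases, ST3GAL1 and ST3GAL5 had the widest spans. ST3GAL1, which caps core 1, read 1199 in HPAF1, 327 in L3.6, 89.3 in PANC1, 1190 in SU86.86 and 102 in HPDE. HPAF1 and SU86.86 were nearly equal, L3.6 was intermediate, and PANC1 and HPDE were below the filter, an arrangement kept on its other probe sets in that PANC1 and HPDE were the 2 lowest. ST3GAL5, which makes the ganglioside GM3, read 842 in HPAF1, 117 in L3.6, 587 in PANC1, 244 in SU86.86 and 84.8 in HPDE.

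ST3GAL4, an enzyme of sialyl-Lewis synthesis, read 268 in HPAF1, 386 in L3.6, 362 in PANC1, 575 in SU86.86 and 112 in HPDE. Its carcinoma mean was 1.31 above HPDE (SE 0.38, limma adjusted p = 0.498), the lowest adjusted p among members in that contrast. The second probe set went the other way, with HPDE highest at 267 and the carcinoma lines between 138 and 173, so no direction can be given for this gene. ST6GALNAC2, which adds sialic acid to the GalNAc of core 1, read 235 in HPAF1, 388 in L3.6, 175 in PANC1, 168 in SU86.86 and 546 in HPDE. ST3GAL2, ST3GAL3 and ST6GALNAC4 were above the filter in all lines with spans of 0.37 to 0.89. ST6GAL1, which sialylates N-glycans, read 97.6 in HPAF1 and between 189 and 290 in the others. ST3GAL6 and ST6GALNAC1, the sialyl-Tn synthase, did not exceed 222 and 151 in any line.

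For the fucosyltransferases, FUT4 and FUT8 were lowest in HPDE. FUT8, the only enzyme of core fucosylation on N-glycans, read 1173 in HPAF1, 1005 in L3.6, 1381 in PANC1, 3061 in SU86.86 and 393 in HPDE. HPDE was at least 2-fold below every other line and SU86.86 at least 2-fold above. Both probe sets had SU86.86 highest and HPDE lowest. On the second, however, HPAF1 and L3.6 exceeded HPDE by less than 2-fold, at 0.92 and 0.82. The carcinoma mean was 1.76 above HPDE (SE 0.64, limma adjusted p = 0.59). FUT4, which makes Lewis x, read 1542 in HPAF1, 237 in L3.6, 461 in PANC1, 790 in SU86.86 and 96.7 in HPDE, again with both probe sets sharing the highest and lowest line.

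FUT2, the secretor enzyme, read 657 in HPAF1, against 207 in L3.6, 154 in PANC1, 259 in SU86.86 and 167 in HPDE, a difference of 1.46 (SE 0.28, limma adjusted p = 0.197). FUT1, the H enzyme of red cells, stayed between 177 and 348. FUT3, the Lewis enzyme that completes CA19-9, stayed between 152 in PANC1 and 301 in SU86.86. FUT6 stayed between 321 and 416. FUT3 and FUT6 are close paralogs, and all 8 FUT6 probe sets lay above the filter with 5 of the 7 others sharing its highest line, so signal may be split or shared between them.

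HPAF1 had the most members at least 2-fold above the mean of the other lines. Of 39 tested members, 12 were at least 2-fold higher in HPAF1 than the mean of the other 4 lines, against 6.96% of tested genes, and 3 were at least 2-fold lower, against 6.3%. Under the stricter level filter the counts were 12 and 3 of 32, against 9.55% and 9.21% of genes. The 12 were GALNT3, GALNT5, GALNT12, C1GALT1C1, GCNT3, B3GNT2, B3GNT3, B3GALT5, ST3GAL1, ST3GAL5, FUT2 and FUT4, and the 3 were GALNT10, GALNT14 and B4GALT2. Not all of the 12 were highest in HPAF1. GALNT3, GALNT12 and B3GNT3 read higher in SU86.86, and ST3GAL1 was nearly equal there. GALNT3 read 3372 in HPAF1 and 3001 in HPDE, so its place among the 12 rests on the 46.9 in PANC1. The median over all 39 was 0.03, against -0.01 for all genes. On probe sets not ending in _x_at or _s_at, which 29 tested members have, the 12 became 7, with no share of all genes given for this rule. Without GALNT10, whose probe sets differ in direction, the 3 became 2. Unadjusted limma p was under 0.05 for 8 of 39 members and 10.1% of genes. Leukocyte markers were highest in HPAF1: of 4 measured, 3 exceeded the level filter there and 1 in each other line, with a summed intensity of 12692 in HPAF1 and 291 to 405 elsewhere. LYZ, also a product of gastric and intestinal epithelium, made up most of it at 12102, while PTPRC, the pan-leukocyte antigen, was below the filter in all lines, at 52.7 to 67.9. The summed epithelial markers, given above, were also highest in HPAF1, and the part of either list in the enzyme differences was not tested.

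In PANC1, 5 members were at least 2-fold higher than the mean of the other lines and 7 lower, against 5.38% and 5.54% of tested genes. The 5 were GALNT2, GALNT7, GALNT10, GALNT11 and ST3GAL5. The 7 were GALNT3, GALNT5, GALNT12, GCNT3, B3GNT3, B3GNT5 and ST3GAL1. GCNT3 read 119 in PANC1 as in HPDE, so its place among the 7 rests on its level in HPAF1. GALNT5 and GALNT12 read higher in PANC1 than in HPDE, at 175 against 137 and 127 against 34.3. ST3GAL1 read 89.3 in PANC1 and 102 in HPDE. Without probe sets ending in _x_at or _s_at, which leaves 29 tested members, the counts were 2 and 4. No share of all genes is given for this rule. Under the stricter level filter 5 and 7 of 32 stood against 7.57% and 8.07% of genes. No member passed limma, with 3 of 39 at an unadjusted p under 0.05, as were 5.56% of genes, and over all genes 4 passed (0.0269%), and 0 with any other line left out. PANC1 also had the lowest summed epithelial markers, given above, most of it from KRT18 at 13880. It was the lowest line for EPCAM, CDH1, KRT19 and KRT7, the last at 111 against at least 4486 elsewhere. For KRT8 and KRT18 HPDE was lowest, at 2430 and 9520. The part of these markers in the enzyme differences was not tested.

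In SU86.86, 8 members were at least 2-fold higher than the mean of the other lines, against 5.29% of tested genes, and 1, GCNT3, was lower, against 2.59%. Of the 8, 5 were initiating enzymes, GALNT3, GALNT6, GALNT10, GALNT12 and GALNT14, joined by B3GNT3, ST3GAL1 and FUT8. GALNT3, GALNT12, B3GNT3 and ST3GAL1 were also among those at least 2-fold higher in HPAF1, and GALNT3 read 46.9 in PANC1. The members' median was 0.34, against -0.06 for all genes. In L3.6, GALNT12 alone was at least 2-fold higher (2.99% of genes) and B3GALT5 and ST3GAL5 were lower (4.72%), with a median of -0.25, against 0.02 for all genes. HPDE, not L3.6, was the lowest line for both lower members. B3GALT5 read 95.2 in L3.6 and 77.0 in HPDE, and ST3GAL5 read 117 and 84.8, all below the level filter. Their place thus rests on higher levels elsewhere, with HPAF1 highest at 1486 and 842. The stricter level filter left these counts as they were, against 7.38% and 3.76% of genes for SU86.86 and 4.15% and 6.92% for L3.6. Without HPAF1 the 1 lower member in SU86.86 became 0, and without HPDE it became 2. In L3.6 the 1 higher member became 0 without PANC1 or HPDE and 2 without SU86.86, and the 2 lower became 5 without HPDE. By limma 0 genes passed in either line. Unadjusted p was under 0.05 for 2 members and 557 genes in SU86.86, and for 1 member and 502 genes in L3.6.

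Against HPDE, members were more often higher than lower in the carcinoma lines. In the mean of the 4 lines, 11 of 39 were at least 2-fold higher than in HPDE and 3 lower, against 5.57% and 6.48% of tested genes. Under the stricter level filter this was 11 and 3 of 32, against 8.18% and 8.93%. The 11 were GALNT5, GALNT10, GALNT12, C1GALT1, GCNT3, B3GALT5, ST3GAL1, ST3GAL4, ST3GAL5, FUT4 and FUT8, and the 3 were GALNT3, B3GNT5 and ST6GALNAC2. For GCNT3, B3GALT5 and C1GALT1 only HPAF1 exceeded HPDE 2-fold or more, by 4.77, 3.39 and 1.59. Elsewhere GCNT3 exceeded HPDE by 0.20 at most. GALNT10 differed from HPDE by -0.49 in HPAF1, and ST3GAL1 by -0.11 in PANC1. GALNT3 was lower in PANC1 (-4.70) and L3.6 (-1.40) but slightly higher in HPAF1 (0.16) and SU86.86 (0.31). Apart from GCNT3, GALNT10, ST3GAL1 and GALNT3, the members listed lay on the same side of HPDE in all 4 lines. Of the 11, only GALNT10, C1GALT1 and FUT8 reached the level filter in HPDE. The others read 34.3 to 137 there and were tested only through carcinoma lines, so they could hardly come out as lower. Without HPAF1 the 11 became 7, and without PANC1 the 3 became 0. With all probe sets of a gene averaged, they were 6 and 1. Counting only members whose probe sets above the filter all had the same direction, a choice made after the data were seen, left 9 and 3, without C1GALT1 and ST3GAL4. By limma 0 members passed and 4 of 39 had an unadjusted p under 0.05, as did 8.23% of genes, while over all genes 4 passed (0.0269%), and 0 when any 1 carcinoma line was left out.

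Line by line, 9 members were at least 2-fold higher in PANC1 than in HPDE (8.47% of genes) and 3 lower (9.26%). In HPAF1 14 were higher (7.77%) and 2 lower (9.27%). In SU86.86 10 were higher (8.44%) and 2 lower (7.72%). In L3.6 5 were higher (6.55%) and 3 lower (8.59%). The 4 differences share the single HPDE array. As in the mean, members below the level filter in HPDE were tested only through carcinoma lines, so they could hardly come out as lower. On the probe sets used, FUT8 was the one member of the set at least 2-fold above HPDE in all 4. No share of all genes is given for this count. FUT8 was higher by 1.42 in HPAF1, 1.21 in L3.6, 1.65 in PANC1 and 2.75 in SU86.86. For GALNT12, which was below the level filter in both PANC1 and HPDE, the size of these differences is uncertain. For B3GNT5 the differences were -0.49 in HPAF1, -1.22 in L3.6, -1.78 in PANC1 and -1.03 in SU86.86. Basal and squamous markers set HPDE apart in the same comparison, with a summed intensity of 599 in HPAF1, 5600 in L3.6, 286 in PANC1, 1232 in SU86.86 and 40227 in HPDE (4 of 6 measured), and their part was not tested.

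**Figure D3:**
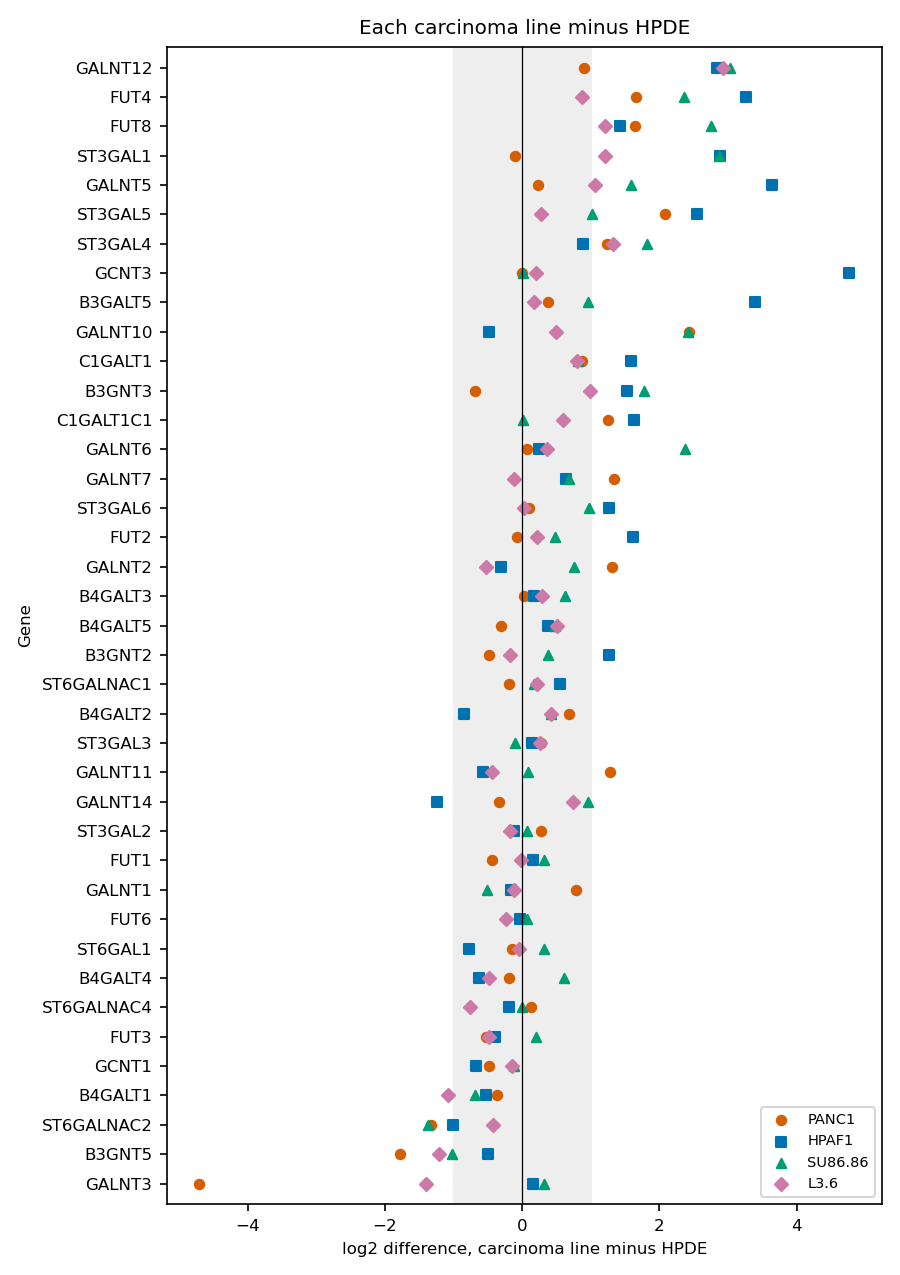
Points give the log2 difference of each carcinoma line minus HPDE for the 39 tested members, ordered by their mean; 1 array stands on each side and the grey band marks under 2-fold. FUT8 lies above the band in all 4 lines, GCNT3 and B3GALT5 in HPAF1 only, and GALNT3, which is below the level filter in PANC1, lies lowest there.

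The genes that supply nucleotide sugars, of which 22 of 25 listed were measured, were more often high in HPAF1 than low. Of the 21 tested, 5 exceeded the average of the other lines at least 2-fold in HPAF1 and 0 were lower, against 6.96% and 6.3% of all tested genes, with a median of 0.41, against -0.01 for all genes. These were GNE and NANS of sialic acid synthesis, GMDS of GDP-fucose synthesis, and the Golgi carriers SLC35C1 and SLC35D2. GNE, the rate-limiting step to sialic acid, read 2119 in HPAF1, against 960 in L3.6, 1400 in PANC1, 388 in SU86.86 and 256 in HPDE. SLC35C1, the GDP-fucose carrier, read 1098 in HPAF1, against 383 in L3.6, 245 in PANC1, 476 in SU86.86 and 327 in HPDE. SLC35D2 spanned 497 in L3.6 to 2768 in HPAF1. GFUS, the last step of GDP-fucose synthesis, read 1764 in HPAF1, 1398 in L3.6, 1429 in PANC1, 1894 in SU86.86 and 391 in HPDE, so HPDE was lowest for it as for FUT4 and FUT8. HPDE was not lowest for FUT1, FUT2, FUT3, FUT6, GMDS, FCSK or SLC35C1, and it was highest for FPGT, at 591. No gene of this list passed limma in any contrast.

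Of 43 further glycan enzymes, 40 were measured and 26 tested. CHST4, which sulphates GlcNAc on mucin-type chains, passed limma in HPAF1, reading 1894 there against 138 in L3.6, 136 in PANC1, 172 in SU86.86 and 125 in HPDE (difference 3.20, SE 0.20, limma adjusted p = 0.0276), a call lost, as for all genes of that contrast, with any other line left out. For CHST4 all lines but HPAF1 sat at or near the level filter, so the SE rests on dim readings. The gene has 1 probe set. In HPAF1 2 of the 26 were at least 2-fold higher and 3 lower, against 6.96% and 6.3% of all tested genes, with a median of 0.07. GCNT2, which branches polylactosamine, read 271 in HPAF1, 998 in L3.6, 1353 in PANC1, 712 in SU86.86 and 135 in HPDE. B3GNT7 was highest in PANC1, at 647, and B3GALNT1 was lowest in HPAF1, at 83.2, against at least 326 elsewhere. Among glycosidases of these chains (9 of 12 measured, 8 tested) 2 were at least 2-fold higher in HPAF1, against the same 6.96%, the sialidase-protecting CTSA and the fucosidase FUCA1, with a median of 0.02. CTSA read 7864 in HPAF1 and at most 2089 elsewhere. FUCA2 ran from 1212 in L3.6 to 2908 in SU86.86, and the sialidase NEU1 was highest in HPDE, at 1477.

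Of the mucins that carry the chains (14 of 15 measured, 11 tested) 4 were at least 2-fold higher in HPAF1 and 0 lower, against 6.96% and 6.3% of all tested genes, with a median of 0.17. MUC20 read 2896 in HPAF1, against 81.9 in L3.6, 83.4 in PANC1, 449 in SU86.86 and 108 in HPDE, and MUC1 read 2872 in HPAF1 and at most 680 elsewhere. MUC17 reached 371 in HPAF1 and MUC2 reached 708 in L3.6.

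**Figure D4:**
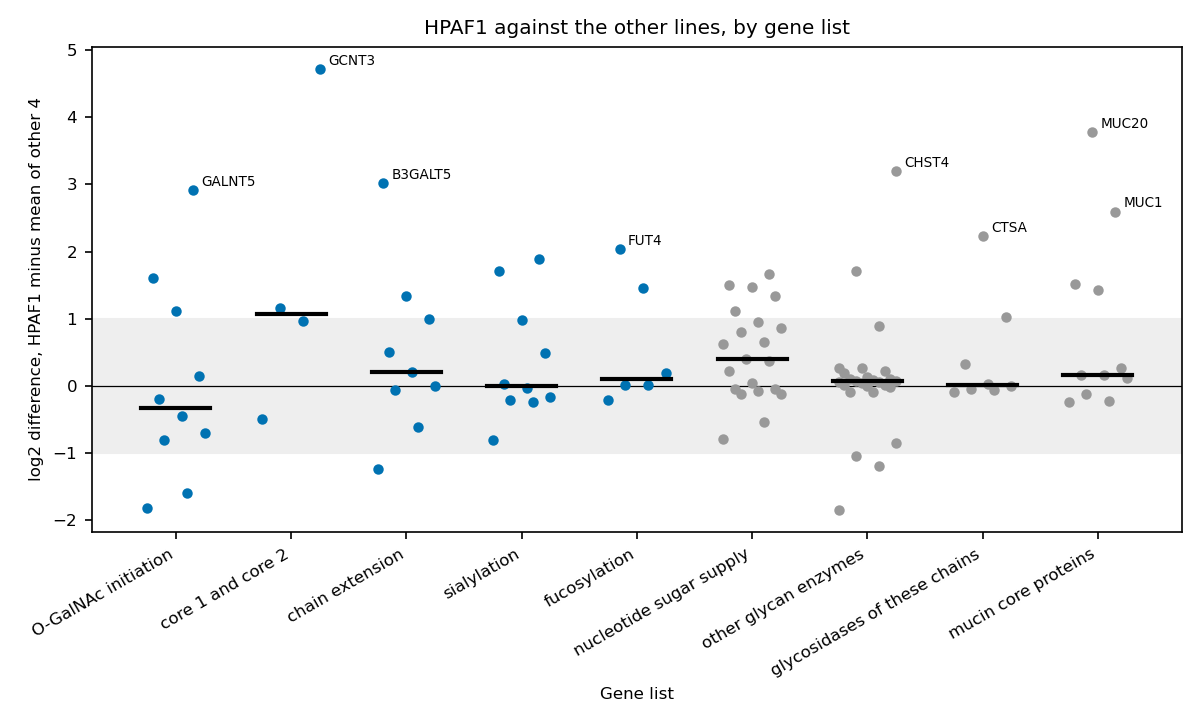
Points give the log2 difference of HPAF1 minus the mean of the other 4 lines for each tested gene, by list; blue lists hold the 39 members, grey lists the related genes, bars are list medians and the grey band marks under 2-fold. GCNT3, GALNT5, B3GALT5, CHST4, MUC20, MUC1 and CTSA lie highest.

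Of 25 members with several probe sets above the level filter, all shared the highest line for 15 and the lowest line for 11. The highest line differed between probe sets for 10, namely GALNT1, GALNT10, B3GNT5, B4GALT1, B4GALT5, ST3GAL1, ST3GAL2, ST3GAL3, ST3GAL4 and FUT6. The lowest line differed for 14, namely GALNT1, GALNT2, GALNT5, GALNT7, GALNT10, C1GALT1, B3GALT5, B4GALT1, ST3GAL1, ST3GAL2, ST3GAL3, ST3GAL4, FUT3 and FUT6.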

How the data were processed

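Total RNA of 5 cell lines was hybridised to 1-colour Affymetrix arrays, 1 per line. The authors deposited 54675 probe set values, in linear intensity units. The sources used here do not state how those values were summarised or scaled. The 62 control probe sets were left out. Of the rest, 41091 carried 1 gene symbol and were used, 1801 carried several and 11721 were not listed. Symbols were updated through a RefSeq gene table (GRCh38.p14), which matched 41037.

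Intensities were transformed as log2(value + 71.1), the constant being their 25th percentile, which understates the change of dim genes. A gene was represented by its brightest probe set by mean. Contrasts set each carcinoma line against the average of the other 4 lines, and the mean of the 4 carcinoma lines with HPDE, in limma 3.58.1 (R 4.3.3). P-values were two-sided and adjusted by Benjamini-Hochberg over 14894 genes, with a threshold of 0.05. The fits have 3 residual degrees of freedom and assume that the lone line varies like the others, so p measures the spread between lines. Their number, 1 array per line, limits the precision. Single lines minus HPDE were described by size, at 2-fold or more, without a test.

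Members, lists and tests were chosen with earlier results of these data known. Values in every line are given for members past the limma threshold, members with a line at least 2-fold apart from all others, and up to 3 members per role with the widest span. Of related lists, up to 4 genes with the widest span and those past the threshold were named, some by extremes only. A few other genes were named after their values were seen. Upstream sequences come from RefSeq (GRCh38.p14). Alternatives were no added constant, a doubled constant, quantile normalization, no or a stricter level filter (383, the 75th percentile), other probe set rules and leaving out each line.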

Additional observations from a re-analysis of the deposited data

How the results depend on the processing

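The difference of GCNT3 in HPAF1 kept its direction and its call under every alternative that kept all lines, at 4.29 to 5.35 with limma adjusted p of 0.00582 to 0.0176, and lost the call with any other line left out. Of the summary counts, 253 alternatives stayed within 1.5 times the value reported and 65 did not. Without the level filter, genes past limma numbered 79 in HPAF1 and 8 in PANC1. Without an added constant, genes past limma numbered 2 in PANC1 and 0 for the carcinoma mean minus HPDE, members at least 2-fold lower numbered 4 in L3.6 against the other lines and 4 in HPAF1 against HPDE, and 7 members had 1 line at least 2-fold below every other. With the constant doubled, 0 members were higher and 0 lower in L3.6 against the other lines, and against HPDE 1 was lower in HPAF1, 1 lower in SU86.86 and 3 higher in L3.6. With quantile normalization, 2 members were higher in L3.6 against the other lines and 1 lower in HPAF1 against HPDE. With the stricter level filter, 1 gene passed limma for the carcinoma mean minus HPDE. With all probe sets averaged, 1 gene passed in that contrast, 6 members were higher and 1 lower, 1 was lower in L3.6 against the other lines, and against HPDE 1 was lower in SU86.86 and 2 were higher and 0 lower in L3.6. Without probe sets ending in _x_at or _s_at, which leaves 29 members, genes past limma numbered 0 in PANC1 and 1 for the carcinoma mean minus HPDE. Members then numbered, against the other lines, 7 higher in HPAF1, 2 higher and 4 lower in PANC1, and 0 higher and 1 lower in L3.6, with 1 lower for the carcinoma mean minus HPDE. Against HPDE they numbered 9 higher in HPAF1, 1 lower in SU86.86, and 3 higher and 1 lower in L3.6, and 0 had 1 line at least 2-fold below every other. Counting only members whose probe sets all had the same direction, an alternative chosen after seeing the data, 1 member was lower in SU86.86 and 3 higher in L3.6 against HPDE. With each line left out in turn, genes past limma numbered 0 to 0 in HPAF1, PANC1 and the carcinoma mean minus HPDE, and members past limma 0 to 0 in HPAF1. Members numbered 0 to 2 lower in SU86.86, 0 to 2 higher and 2 to 5 lower in L3.6, 7 to 11 higher and 0 to 3 lower for the carcinoma mean minus HPDE, 6 to 11 with 1 line above every other and 2 to 6 with 1 line below. Fewer genes or lines entered these fits by construction where one was left out, and elsewhere the cause was not tested. No detection calls were used, so the size of differences that involve levels near or below 140 is uncertain. No paired analysis was possible because each line has 1 array and the labels give no replicate numbers.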
